A study of Mus musculus with 50 samples.

Results

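The antioxidant defence genes are 10 genes grouped by function: Nfe2l2 and Keap1, the superoxide dismutases Sod1, Sod2 and Sod3, the catalase gene Cat, the glutathione peroxidases Gpx1 and Gpx4, the mitochondrial peroxiredoxin Prdx3 and the mitochondrial thioredoxin Txn2. Their members in the data are the CpGs that the authors assigned to the promoter (from 3000 bp before a transcription start to 1000 bp after it) or to the body of one of these genes. This gave 75 CpGs of 205304 in all. They lay in 14 of 51038 clusters, a cluster being a run of CpGs no more than 100 bp apart, and belonged to 9 of the 10 genes. No CpG was assigned to Prdx3, whose nearest measured CpG was 14720 bp away, so nothing below is about that gene.

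The samples were soleus muscles, each from a C57BL/6 mouse aged 12 weeks and analysed by reduced representation bisulfite sequencing (RRBS), in which DNA is cut at CCGG and unmethylated cytosines are converted before sequencing. All mice carried floxed Dnmt3a alleles, in which exon 19 of this gene of a de novo DNA methyltransferase can be removed. Those called WT had no Cre, and those called mD3AKO (muscle-specific Dnmt3a knockout) had the mCK-Cre transgene, driven by the promoter of muscle creatine kinase, which acts in skeletal muscle and heart. A whole muscle also holds cells in which this promoter is not known to act, and in which cells the gene was lost cannot be read from these values. Mice of both sexes were killed at rest, after time in a sham treadmill arena, or 10, 30 or 60 min after a treadmill bout of 30 min. Counts of 21 WT samples (5, 5, 5 and 6 in the order of these times) and 23 mD3AKO samples (5, 5, 7 and 6) were used, and a mean ± SD with no n is over these 21 or 23.

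Superoxide leaks from the respiratory chain of working muscle and is turned into hydrogen peroxide by superoxide dismutases. SOD1 does so in the cytosol, SOD2 in the mitochondrial matrix and SOD3 outside the cell. Hydrogen peroxide is then removed by catalase, by glutathione peroxidases and by peroxiredoxins, the last of which are kept reduced by thioredoxins. NRF2, the product of Nfe2l2, is the transcription factor that switches on many of these genes under oxidative stress, and KEAP1 holds it in check by marking it for degradation. Methylation of CpGs at a promoter is generally low in genes that a tissue uses, whereas CpGs inside genes and between them are often methylated.

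Over the whole table a sample had 12819404 to 41285655 methylation calls, with no CpG covered by fewer than 8. In the 14 clusters a sample had 13 to 3946 calls. The methylation level is the share of methylated calls, in percent. Within the 8 groups of genotype and time, the chi-square of these counts per degree of freedom was 3.80 to 21.0 in the 14 clusters, where counting error alone gives about 1, so the SD between samples is given with each value. A whole muscle holds several cell types, and a change in their shares cannot be told apart from a change of methylation within a type. The table holds no expression values. Of 7 muscle fibre genes looked up, only Tnnc1 and Acta1 had a promoter CpG in it. Tnnc1 (5 CpGs) had a mean level of 0.514%, with samples from 0 to 3.26%. Acta1 (1 CpG) had a mean of 14.6%, with samples from 0 to 84.9%. The genotype labels were checked on the 553 clusters of the whole table with a called lower level in mD3AKO, whose mean level was 32.2 to 38.4% in the WT samples and 18.3 to 25.7% in the mD3AKO samples. The groups did not overlap, which is a description, since these clusters were chosen by that contrast.

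The measured sites are shown here on the strand of their gene, as GRCm38 sequence with the measured CpGs in capitals, to set sites of low, intermediate and high methylation side by side. The Nfe2l2 promoter (chr2:75705066-75705160), Sod1 promoter (chr16:90221257-90221360) and Txn2 promoter (chr15:77929007-77929191, 8 of 9 measured CpGs shown) windows were almost free of methylation. The sites in the Nfe2l2 gene body (chr2:75681412-75681556), in the Sod3 gene body (chr5:52368327-52368408) and in the Gpx4 gene body (chr10:80051096-80051188), and the intronic CpG of the Sod3 promoter (chr5:52364053-52364086, 1 of 2 measured CpGs shown), were methylated in part. The CpG assigned to the Gpx1 promoter (chr9:108336155-108336235) is the only one in its window and was mostly methylated.
Nfe2l2 promoter: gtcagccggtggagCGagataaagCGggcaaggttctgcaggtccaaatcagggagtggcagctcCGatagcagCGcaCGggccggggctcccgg
Sod1 promoter: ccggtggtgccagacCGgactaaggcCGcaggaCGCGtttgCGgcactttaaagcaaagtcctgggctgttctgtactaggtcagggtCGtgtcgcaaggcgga
Txn2 promoter: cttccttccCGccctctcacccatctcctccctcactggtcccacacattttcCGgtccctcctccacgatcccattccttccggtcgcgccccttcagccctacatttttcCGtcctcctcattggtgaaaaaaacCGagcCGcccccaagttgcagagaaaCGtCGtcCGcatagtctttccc
Nfe2l2 gene body: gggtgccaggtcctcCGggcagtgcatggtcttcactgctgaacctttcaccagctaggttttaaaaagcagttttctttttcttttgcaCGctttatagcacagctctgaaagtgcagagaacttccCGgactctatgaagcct
Sod3 promoter: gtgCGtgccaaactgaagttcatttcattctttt
Sod3 gene body: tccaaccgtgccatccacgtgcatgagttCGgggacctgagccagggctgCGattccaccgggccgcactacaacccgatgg
Gpx4 gene body: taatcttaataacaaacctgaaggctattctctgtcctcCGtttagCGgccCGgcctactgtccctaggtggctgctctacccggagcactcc
Gpx1 promoter: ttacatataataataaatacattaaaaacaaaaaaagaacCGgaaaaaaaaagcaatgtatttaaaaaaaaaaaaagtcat

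In WT muscle 7 of the 14 clusters had a mean level under 2%, against 19.2% of all clusters. All clusters include those assigned to no gene, so these shares are not of like clusters. The related genes taken up below also had clusters under 2%, in each of their 5 lists, so such levels were not particular to the antioxidant defence genes. Of the 75 CpGs, 55 were under 2%. Their median WT level was 0.670%, against 2.06% over all CpGs. These 7 clusters were the promoters of Nfe2l2, Keap1, Sod1, Cat and Txn2, the larger of both Sod2 promoter clusters and the Txn2 gene body. Within 100 bp of their centres the ratio of observed to expected CpGs was 0.503 to 1.08, and in the other 7 clusters it was 0.147 to 0.824, so the ranges overlapped. The clusters with levels above 2% held 1 to 4 CpGs each, and those below held 2 to 19.

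**Figure D1:**
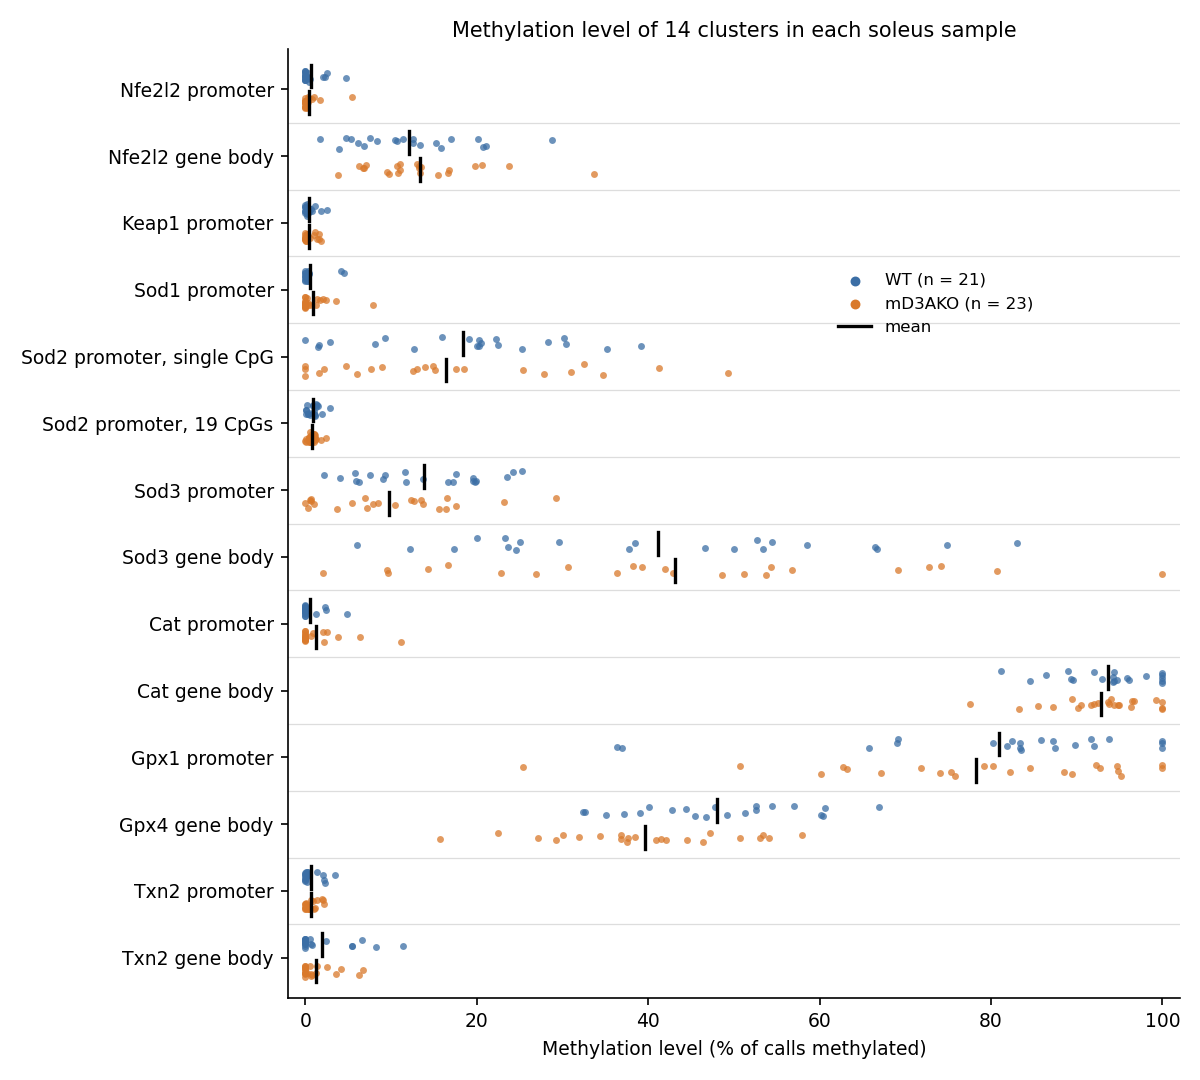
Methylation level (% of calls methylated, x axis) of each of the 14 clusters (rows) in every sample, with WT in blue, mD3AKO in orange and the mean of each genotype as a black bar. The 7 clusters under 2% sit at the left edge, the Cat gene body and the Gpx1 promoter lie at the right, and the samples of both genotypes overlap in every cluster.

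The effect of losing DNMT3A was asked first. Of the 14 clusters, 0 passed the test for genotype (edgeR quasi-likelihood F test, adjusted p under 0.05 after Benjamini-Hochberg adjustment over all clusters), against 1.09% of all clusters (556 of 51038). At an unadjusted p under 0.05 there was 1, the Gpx4 gene body, against 9.56% of all clusters. The likelihood ratio test, a quasi-binomial model and limma also called 0 of the 14 (2.77%, 2.54% and 1.75% of all clusters). At an unadjusted p under 0.05 they gave 1, 1 and 2. The share of all clusters at that threshold was not counted for these 3 tests, so these counts have no background beside them. The mean level was lower in mD3AKO in 10 clusters and higher in 4, with a median difference of -0.159 percentage points, while over all clusters 62.4% were lower and the median difference was -0.455 points. The 14 are not matched to all clusters in level. Of all clusters with a WT level under 2%, where 7 of the 14 lay, 0.102% were called. The median difference there was -0.0134 points, and -0.0413 in the 7. At WT levels of 2 to 20%, 20 to 80% and 80 to 100%, 3.40%, 1.23% and 0.456% of all clusters were called. Among the 8 promoters of these genes that could be tested as whole units, 0 were called (0.789% of all promoters were) and 0 had an unadjusted p under 0.05 (8.13% of all promoters). Of their 8 gene bodies 0 were called (1.40% of all gene bodies), with 1, that of Gpx4, at an unadjusted p under 0.05 (9.77% of all gene bodies). None of the 75 single CpGs was called (0.286% of all CpGs), and 4 had an unadjusted p under 0.05 (6.36% of all CpGs). The interval of each difference is given below, since a p-value above the threshold does not show that the genotypes were alike.

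**Figure D2:**
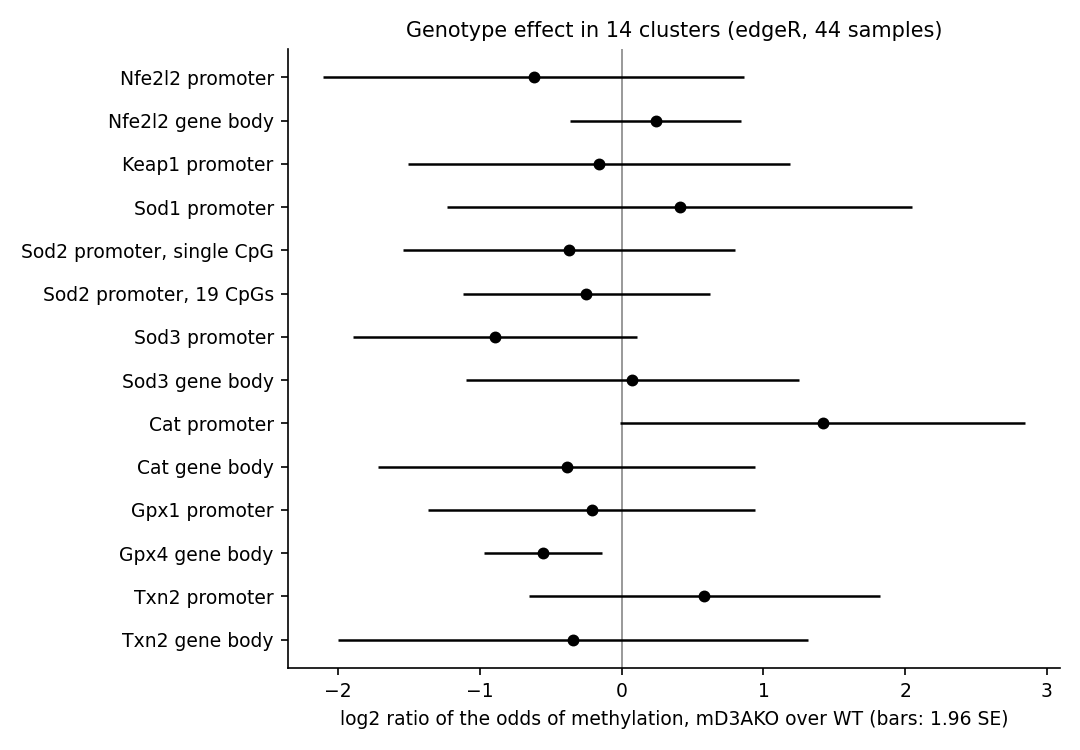
Genotype effect in each of the 14 clusters as the log2 ratio of the odds of methylation in mD3AKO over WT (x axis), with bars for the normal 95% interval. The bar of the Gpx4 gene body alone does not reach 0, at -0.56 with bounds of -0.97 and -0.14, and its adjusted p was 0.297.

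NRF2 and KEAP1 set the level of the whole system. The Nfe2l2 promoter cluster (chr2:75705081-75705145, 5 CpGs, -504 to -440 bp from the transcription start, outside any transcript of the gene) was nearly unmethylated. It averaged 0.644% ± 1.23 in WT and 0.447% ± 1.16 in mD3AKO. The lowest, median and highest samples were at 0%, 0% and 4.72% in WT and at 0%, 0% and 5.44% in mD3AKO. No methylated call was seen in 25 of the 44 samples. The cluster had 155 to 940 calls per sample, and over that range a count of 0 allows a level of up to 1.94% at the shallowest and 0.319% at the deepest. The difference was -0.197 points (95% interval -0.906 to 0.512). Further inside the gene, an intronic cluster (chr2:75681427-75681541, 3 CpGs, 23100 to 23214 bp from the start) was intermediate, at 12.1% ± 6.80 in WT and 13.3% ± 6.62 in mD3AKO. Its samples spread from 1.64% over a median of 11.4% to 28.8% in WT, and from 3.75% over 13.0% to 33.7% in mD3AKO, so the genotypes covered nearly the same range (difference 1.23 points, 95% interval -2.75 to 5.20, adjusted p = 0.927). The middle of its 3 CpGs was the most methylated, at 16.0% ± 9.50 in WT, against 9.39% ± 9.75 and 5.59% ± 8.32 at its neighbours.

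The Keap1 promoter cluster (chr9:21238806-21239273, 15 CpGs) lay in untranslated exon sequence near the start sites of the gene, where GC made up 78.1% of the bases within 100 bp of its centre. It was at 0.444% ± 0.664 in WT and 0.433% ± 0.621 in mD3AKO, and no sample exceeded 2.57%. The interval of the difference, -0.391 to 0.370 points, was the second narrowest of the 14 after that of the larger Sod2 cluster. At 2 of the 15 CpGs not a methylated call was seen in any sample.

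The superoxide dismutases differed among themselves. At Sod1, the cytosolic copper and zinc enzyme, the cluster (chr16:90221272-90221345, 6 CpGs) lay in an intron, 518 to 591 bp from the start, and was at 0.560% ± 1.26 in WT and 0.930% ± 1.80 in mD3AKO. Most samples were at or near 0 (35 of 44 were under 1%), and the highest reached 4.50% in WT and 7.88% in mD3AKO. Without the latter sample the difference of 0.370 points became 0.0543.

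Sod2, which codes for the manganese enzyme of the mitochondrial matrix, had 20 CpGs in its promoter. A cluster of 19 (chr17:13007463-13008030, from -354 to 213 bp around a start site of coding transcripts) was at 0.894% ± 0.694 in WT and 0.774% ± 0.560 in mD3AKO, with 959 to 3946 calls per sample. The remaining CpG (chr17:13007184, in an intron, 338 bp from the start of another coding transcript) stood apart from it. That site was at 18.3% ± 11.3 in WT and 16.4% ± 14.1 in mD3AKO. Its samples ran from 0% over a median of 20.2% to 39.1% in WT, and from 0% over 13.9% to 49.4% in mD3AKO, on 23 to 194 calls, so both genotypes held samples at each end. The difference of -1.88 points had a 95% interval of -9.40 to 5.64. Within the cluster of 19, the CpG at chr17:13007634 had the lowest p of the 75 CpGs, with 0.835% ± 3.35 in WT and 2.22% ± 3.35 in mD3AKO (unadjusted p = 0.0156, adjusted p = 0.565, edgeR).

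Sod3 codes for the extracellular superoxide dismutase and was the member with the widest spread between samples. Its promoter cluster (chr5:52363930-52364056, 2 CpGs, 139 and 265 bp from the start) was at 13.8% ± 7.11 in WT and 9.73% ± 7.92 in mD3AKO. The WT samples ran from 2.13% over a median of 13.7% to 25.2%, and the mD3AKO samples from 0% over 8.47% to 29.2%, so the ranges overlapped almost throughout. The difference of -4.08 points had a 95% interval of -8.52 to 0.357 (log2 odds ratio -0.89 ± 0.51, SE, unadjusted p = 0.0879, adjusted p = 0.632). It was -0.638 points within the samples numbered 1 to 25, all at rest or 60 min, and -7.52 points within those numbered 26 to 50, all at 10 or 30 min. The CpG in untranslated exon sequence was at 6.42% ± 10.2 in WT and 1.70% ± 3.75 in mD3AKO (unadjusted p = 0.0326, adjusted p = 0.694), and that in the intron at 23.7% ± 16.9 and 17.9% ± 16.0. In the coding exon, 4566 to 4587 bp from the start, a cluster of 2 CpGs (chr5:52368357-52368378) was at 41.2% ± 21.7 in WT and 43.1% ± 25.3 in mD3AKO. Here the samples covered 6.00% to 83.1% in WT and 2.02% to 100% in mD3AKO, on 22 to 280 calls, and the interval of the difference was correspondingly wide, from -11.9 to 15.9 points.

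Catalase breaks hydrogen peroxide down directly, and its gene showed both extremes. The promoter cluster (chr2:103485108-103485173, 3 CpGs at the start site) was at 0.508% ± 1.23 in WT and 1.28% ± 2.67 in mD3AKO. No methylated call was seen in 32 of the 44 samples. With 27 to 300 calls per sample in this cluster, a count of 0 allows up to 11.1% at the shallowest and 1.00% at the deepest. The log2 odds ratio was 1.42 ± 0.73 (SE), the largest upward estimate of the 14, with an unadjusted p of 0.0601 and an adjusted p of 0.561. The difference of 0.772 points fell to 0.326 without the mD3AKO sample that was highest, at 11.1% on 45 calls. At the other end of the gene, in the 3′ untranslated region, a cluster of 4 CpGs (chr2:103454687-103454737) was almost fully methylated, at 93.6% ± 5.42 in WT and 92.8% ± 5.59 in mD3AKO. Its samples lay between 81.2% and 100% in WT and between 77.5% and 100% in mD3AKO.

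Glutathione peroxidases reduce peroxides with glutathione. GPX1 acts on hydrogen peroxide, and GPX4 on lipid peroxides in membranes, where it holds back ferroptosis. The single CpG assigned to the Gpx1 promoter (chr9:108336195) lay -2859 bp from the nearest coding start of Gpx1, and the authors assigned it to the body of the neighbouring gene Rhoa as well. It was at 80.9% ± 17.5 in WT and 78.3% ± 17.9 in mD3AKO, on 13 to 305 calls. The samples ran from 36.4% over 83.5% to 100% in WT and from 25.4% over 80.2% to 100% in mD3AKO, so a few samples of each genotype lay far below the rest (difference -2.69 points, 95% interval -13.2 to 7.77).

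The Gpx4 cluster (chr10:80051136-80051148, 3 CpGs) had the lowest genotype p of the 14. The annotation places it -2352 to -2340 bp from the nearest coding start, inside an intron of a non-coding transcript of the gene. It thus lay less than 3000 bp before that start, but the authors assigned it to the gene body and to no promoter. From the first start of the gene it lay at 3970 to 3982 bp. In WT it was at 35.0%, 37.2%, 39.0%, 42.8% and 51.3% in the 5 samples at rest, at 40.1%, 45.5%, 52.6%, 60.4% and 60.6% at 10 min and at 32.6%, 44.4%, 49.1%, 54.4% and 60.1% at 30 min. At 60 min the lowest, median and highest of 6 WT samples were 32.4%, 50.2% and 66.9%. In mD3AKO the samples at rest were at 15.7%, 29.3%, 36.8%, 38.5% and 44.5%, and those at 10 min at 22.4%, 27.2%, 34.4%, 41.5% and 47.3%. The 7 mD3AKO samples at 30 min ran from 30.1% over 37.6% to 54.1%, and the 6 at 60 min from 36.8% over 44.2% to 57.9%. At every time the mD3AKO mean lay below the WT mean and the samples of the genotypes overlapped.

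Pooled over time, the Gpx4 cluster was at 48.0% ± 9.88 in WT and 39.6% ± 10.7 in mD3AKO. The difference of -8.46 points (95% interval -14.5 to -2.39) was smaller than the SD of either genotype, and 18 of the 23 mD3AKO samples were below the WT mean. In edgeR the log2 odds ratio was -0.56 ± 0.21 (SE), with an unadjusted p of 0.0122 and an adjusted p of 0.297, so the difference did not pass the test over all clusters. In samples 1 to 25 the means were 46.2% ± 10.4 (SD, n = 11) and 40.2% ± 11.4 (SD, n = 11), and in samples 26 to 50 they were 50.0% ± 9.43 (SD, n = 10) and 39.0% ± 10.5 (SD, n = 12), with unadjusted edgeR p-values of 0.226 and 0.0382 and adjusted ones of 0.931 and 0.704. The size of the difference went up along the cluster, from -5.51 points at the CpG farthest from the coding start over -8.39 to -11.5 at the nearest (unadjusted p = 0.296, 0.129 and 0.0480, adjusted p of at least 0.777). These 3 CpGs lie within 13 bp and share their reads, so they are not separate evidence.

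Over the 44 samples, the levels of 30757 other clusters assigned to a gene were correlated with those of the Gpx4 cluster, and the 3 with the highest Pearson r are named as a description. They lay in the bodies of Ccdc127 (chr13:74356578-74356641, r = 0.633, Spearman rho = 0.560), Ext1 (chr15:53341461-53341468, r = 0.601, rho = 0.593) and Tmem51 (chr4:142060822-142060881, r = 0.599, rho = 0.571). Without the 2 samples farthest from the Gpx4 median, r was 0.595, 0.522 and 0.579. The samples shared their libraries and included both genotypes, and the differences of mD3AKO from WT in these 3 clusters were -13.0, -20.4 and -13.9 points. Within WT alone r was 0.429, 0.349 and 0.648, and within mD3AKO 0.670, 0.630 and 0.349.

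Thioredoxin 2 keeps PRDX3 of the mitochondria reduced. The Txn2 promoter cluster (chr15:77929006-77929181, 9 CpGs, from the start site to -175 bp) was at 0.628% ± 1.00 in WT and 0.587% ± 0.70 in mD3AKO. The difference of the means was -0.0413 points while the fitted log2 odds ratio was 0.58 ± 0.63 (SE), so the sign was not the same on both scales. An intronic cluster (chr15:77917415-77917502, 2 CpGs) was at 1.97% ± 3.36 and 1.24% ± 2.01, with 23 of 44 samples at 0 and the highest at 11.4% in WT and 6.67% in mD3AKO.

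Time after exercise was examined in the same fit. None of the 14 clusters passed the test for time and none that for a genotype by time interaction (edgeR, 0% of all clusters called in either), and 0 had an unadjusted p under 0.05 in either (2.85% and 2.73% of all clusters). The likelihood ratio test called 0 for time and 0 for the interaction as well, with 1 and 0 at an unadjusted p under 0.05. For this test too the share of all clusters at that threshold was not counted. The lowest unadjusted p for time was 0.0654, at the Txn2 promoter, and that for the interaction 0.0810, at the Nfe2l2 promoter (adjusted p = 1 for both). Taken against rest within a genotype, the differences of the 14 clusters ran from -10.6 to 10.8 points at 10 min, from -5.89 to 7.09 at 30 min and from -14.5 to 9.53 at 60 min in WT. In mD3AKO they ran from -5.17 to 4.04, from -12.8 to 9.20 and from -9.03 to 13.3 points. The median of each of these sets lay between -0.749 and 0.225 points.

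In WT the Gpx4 cluster was at 41.0% ± 6.39 (SD, n = 5) at rest and at 51.8% ± 9.05 (SD, n = 5), 48.1% ± 10.5 (SD, n = 5) and 50.6% ± 11.6 (SD, n = 6) at 10, 30 and 60 min. In mD3AKO the series was 32.9% ± 11.0 (SD, n = 5), 34.5% ± 10.1 (SD, n = 5), 42.1% ± 10.2 (SD, n = 7) and 46.2% ± 8.04 (SD, n = 6). The means after exercise were above those at rest in both genotypes, with samples overlapping at each step. At 10 and 30 min this cannot be told apart from a difference between the numbering sets. In edgeR the unadjusted p was 0.138 for time and 0.563 for the interaction, with an adjusted p of 1 for both. Between genotypes the difference was -8.10 points in the rested mice and -17.3, -5.99 and -4.34 points at the 3 times after exercise, with unadjusted edgeR p-values of 0.224, 0.0210, 0.383 and 0.525 and adjusted ones of at least 0.958. At 30 min the Sod3 promoter averaged 16.8% ± 7.91 in the 5 WT samples and 6.09% ± 6.28 in the 7 mD3AKO samples. The unadjusted edgeR p of that comparison was 0.0371 and the adjusted p 0.934. The WT samples at that time were at 7.50%, 9.26%, 19.6%, 23.5% and 24.2%, and the mD3AKO samples ran from 0% over 7.16% to 17.6%. At the Txn2 promoter, the WT samples at 10 min were at 0% in all but 1, which was at 0.0851%, against a mean of 0.768% ± 0.885 (SD, n = 5) at rest. In edgeR the unadjusted p was 0.0181 and the adjusted p 1.

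**Figure D3:**
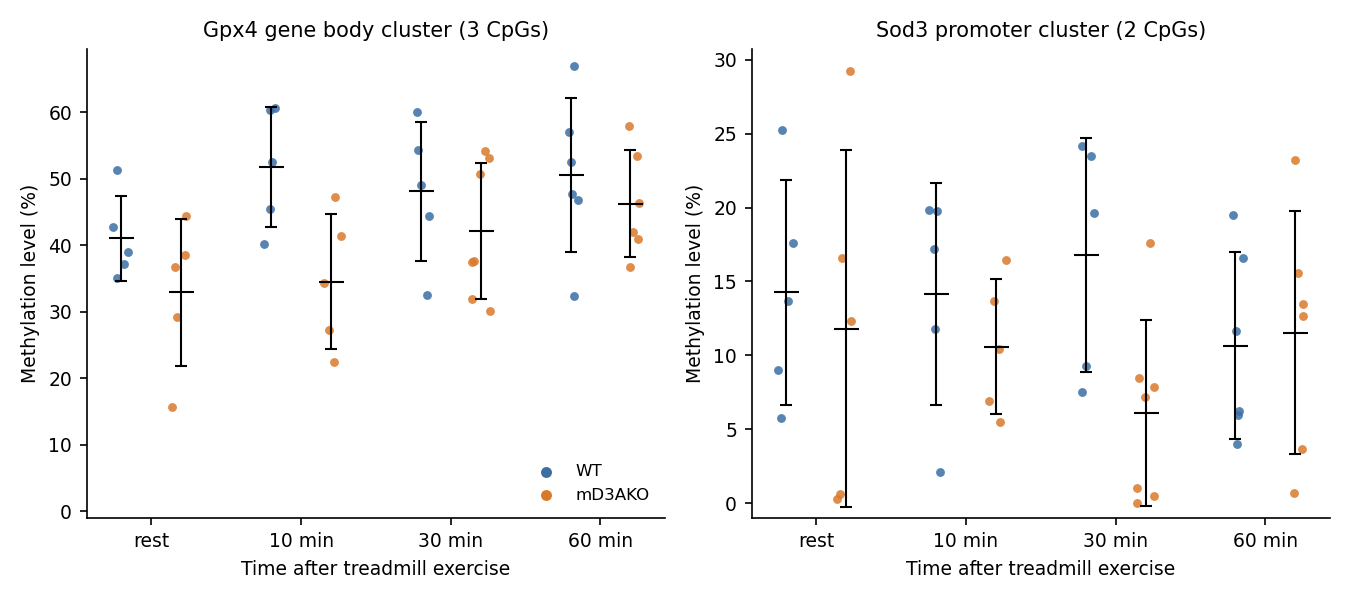
Methylation level (y axis, %) of the Gpx4 gene body cluster (left) and the Sod3 promoter cluster (right) at rest and at 10, 30 and 60 min after exercise (x axis), with 1 point per sample, WT in blue and mD3AKO in orange, the mean as a horizontal bar and the SD as an error bar. The mD3AKO mean of Gpx4 is below that of WT at each time, with a difference of -17.3 points at 10 min, and the points of both genotypes overlap at all times.

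The sexes were compared after the levels had been seen. The genotype difference had opposite signs in females and males in 6 of the 14 clusters, and the share of all clusters was not counted. Among the 6 were the Keap1, Sod1 and Txn2 promoters, where the differences were at most 0.790 points in size in either sex. In 11 WT males the Sod3 promoter cluster was at 16.9% ± 5.86 and in 12 mD3AKO males at 5.42% ± 5.34, with samples from 5.95% over a median of 17.6% to 25.2% in WT and from 0% over 4.56% to 15.6% in mD3AKO. In 10 WT females it was at 10.4% ± 7.06 and in 11 mD3AKO females at 14.4% ± 7.74, with samples from 2.13% over 8.38% to 24.2% and from 0.654% over 13.7% to 29.2%. The mD3AKO samples were thus mostly in the lower part of the range in males and not in females, by -11.5 and 4.00 points. With 2 to 4 samples per genotype, sex and time, the male mD3AKO mean was below the male WT mean at each of the 4 times, and the female one was above at rest, 10 and 60 min and below at 30 min (11.1% against 13.6%). The intronic CpG carried most of this, at 28.3% ± 16.0 in WT and 11.0% ± 14.8 in mD3AKO males and at 18.8% ± 17.3 and 25.3% ± 14.2 in females. The test of the genotype by sex term in edgeR, fitted over all clusters, gave an unadjusted p of 0.000816 and an adjusted p of 1 for this cluster, so the term did not pass.

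No member cluster was called for genotype by sex, and 0% of all clusters were (edgeR). At an unadjusted p under 0.05 there were 2 of the 14, against 3.29% of all clusters, and limma called 0 of the 14 (0% of all clusters) with 3 at an unadjusted p under 0.05 (4.61% of all clusters), the third being the Gpx1 promoter. The second of the 2 was the Cat cluster in the 3′ untranslated region (unadjusted p = 0.0201), which in females was at 96.1% ± 3.76 in WT and 91.6% ± 4.00 in mD3AKO and in males at 91.4% ± 5.89 and 93.8% ± 6.73. At the Gpx1 promoter the level was 73.2% ± 21.4 in WT and 80.8% ± 12.2 in mD3AKO females and 88.0% ± 9.20 and 75.9% ± 22.2 in males, differences of 7.59 and -12.1 points (unadjusted p = 0.0995 in edgeR and 0.0377 in limma, adjusted p of 1.00 in limma). At Gpx4 the difference was -11.5 points in females and -5.68 in males, with a genotype by sex p of 0.506 (unadjusted, edgeR).

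**Figure D4:**
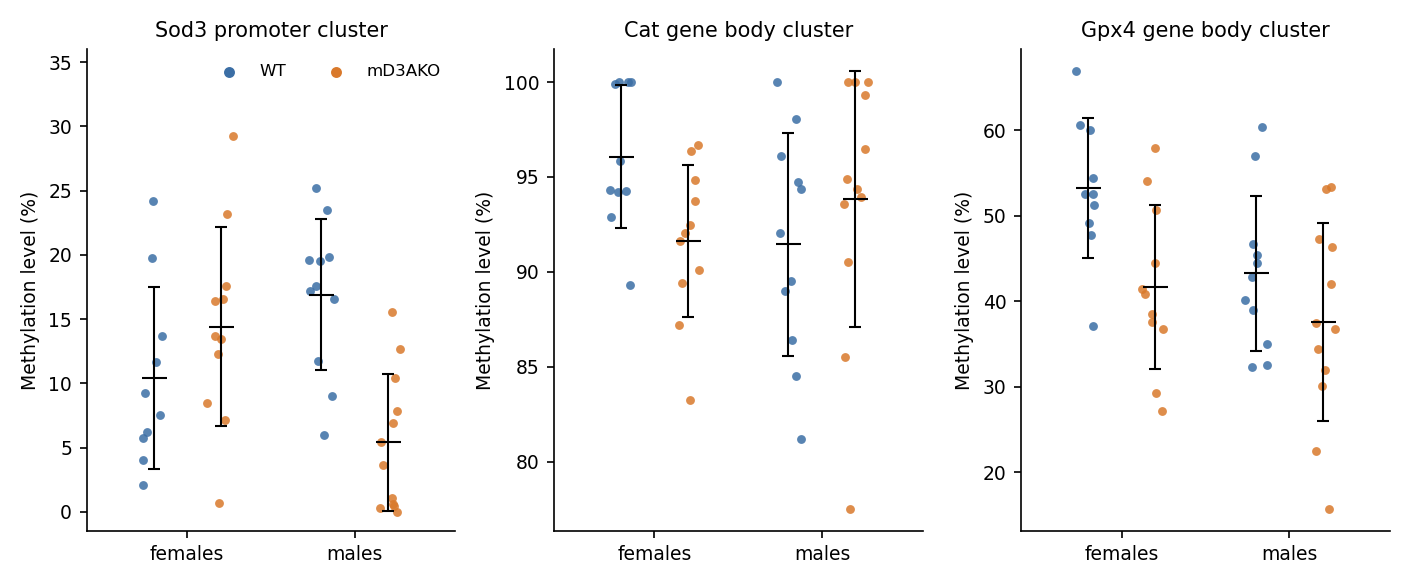
Methylation level (y axis, %, scaled to each panel and not from 0 in the Cat and Gpx4 panels) of the Sod3 promoter, Cat gene body and Gpx4 gene body clusters in females and males (x axis), with 1 point per sample, WT in blue and mD3AKO in orange, the mean as a horizontal bar and the SD as an error bar. In the Sod3 panel the orange mean differs from the blue one by -11.5 points in males and 4.00 points in females, and points of both colours overlap in each sex.

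Genes that work with these were counted in 5 lists of 97 genes in all, of which 81 had a CpG in the table, in 141 clusters. Of these clusters 1 was called for genotype, a share of 0.709% against the 1.09% of all clusters, and 10 had an unadjusted p under 0.05, a share of 7.09% against the 9.56% of all clusters. The counts at that threshold below are to be read against the same 9.56%. Levels were lower in mD3AKO in 81 clusters and higher in 60, with a median difference of -0.154 points. In none of the lists was a cluster called for time or for the interaction.

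The called cluster belonged to the glutathione list (35 clusters, 23 lower and 12 higher) and lay at Gpx7, a peroxidase of the endoplasmic reticulum (chr4:108406293-108406384, 9 CpGs assigned to its promoter and gene body). Its level was lower in the knockout, at 8.73% ± 5.06 in WT against 2.14% ± 2.22 in mD3AKO (log2 odds ratio -2.50 ± 0.38, SE, edgeR adjusted p = 0.000149). WT samples ran from 1.91% over a median of 7.76% to 23.4%, and mD3AKO samples from 0.264% over 1.23% to 7.15%. All 23 mD3AKO samples lay below the WT mean, though the ranges overlapped. The share of all clusters with such a count was not taken. The next clusters of this list were a pair in the body of Gsta4, a glutathione transferase, and one in the body of Slc7a11, the cystine transporter (adjusted p of 0.270, 0.474 and 0.564).

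In the list of thioredoxins and peroxiredoxins (29 clusters) 0 were called and 3 had an unadjusted p under 0.05. A CpG in the body of Txnrd1, the cytosolic thioredoxin reductase, was at 86.4% ± 19.0 in WT and 69.1% ± 23.1 in mD3AKO (adjusted p = 0.112), and the others were at Txnrd3 and Sesn3 (adjusted p = 0.284 and 0.297). Of the NRF2 partners and targets (38 clusters) 0 were called and 3 had an unadjusted p under 0.05. These lay in the bodies of Blvrb, Bach2 and Tkt, with differences of -5.75, -17.3 and -6.79 points and adjusted p-values of 0.385, 0.429 and 0.438. BACH2 is a repressor that competes with NRF2 for its sites. Among sources of reactive oxygen species (27 clusters) 0 were called and 1 had an unadjusted p under 0.05, the promoter cluster of Cyba, a membrane subunit of NADPH oxidases. It was at 13.3% ± 9.54 in WT and 4.33% ± 3.72 in mD3AKO, with all 23 mD3AKO samples below the WT mean (adjusted p = 0.130). The share of all clusters with such a count was not taken. A cluster of the thioredoxin and peroxiredoxin list with an adjusted p of 0.676 also had all 23 below its WT mean. Xdh and Rac2 came next among the sources of reactive oxygen species (adjusted p = 0.634 and 0.668). In the list of metal handling genes (12 clusters) 0 were called and 0 had an unadjusted p under 0.05, and its lowest adjusted p-values were 0.563 at Mt3, 0.675 at Park7 and 0.727 at Mt2. All p-values of these lists came from the edgeR fit over all clusters. The Cyba and Txnrd1 clusters changed side with the test used. Cyba was called by the likelihood ratio test and the quasi-binomial model (adjusted p = 0.0204 and 0.00451), and Txnrd1 by the likelihood ratio test and limma (adjusted p = 0.00952 and 0.0253).

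**Figure D5:**
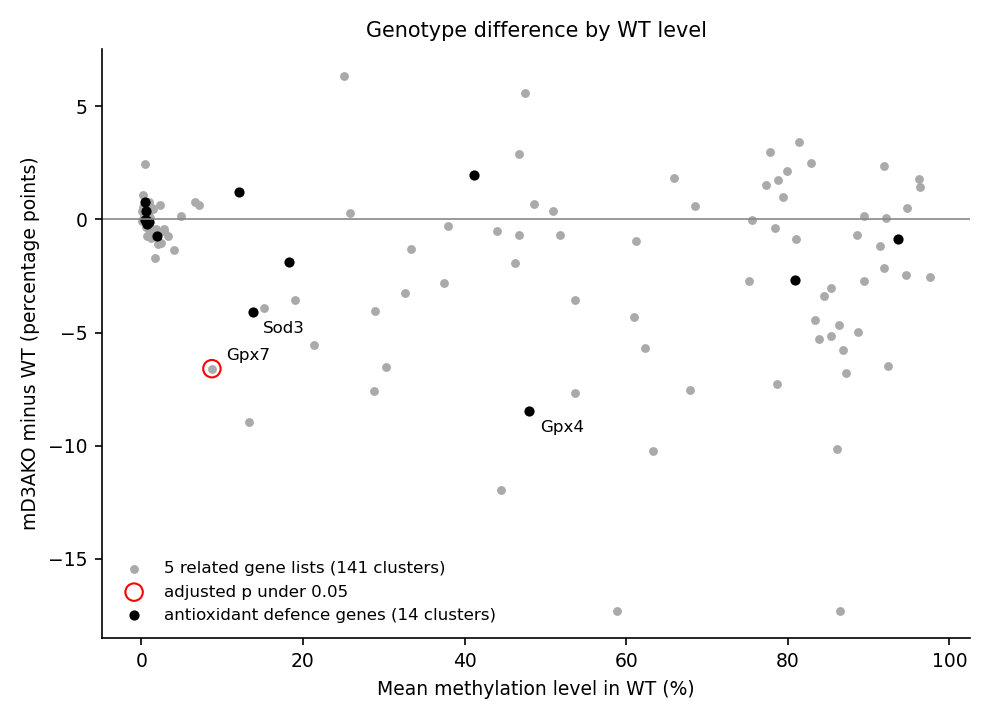
Difference in mean level between genotypes (y axis, mD3AKO minus WT, percentage points) against the mean level in WT (x axis, %) for the 14 clusters of the antioxidant defence genes (black) and the clusters of the 5 related lists (grey), with the cluster called for genotype circled in red. The 7 black points under 2% crowd near 0 on both axes, Gpx4 lies lowest of the 14 at -8.46 points, and the circled Gpx7 cluster is at -6.60 points from a WT level of 8.73%.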

How the data were processed

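The authors trimmed the RRBS reads with Trim Galore 0.4.0 (cutadapt 1.9.1) in its RRBS mode, aligned them to mm10 with Bismark 0.18.1, added up both strands, required a coverage of 8 throughout and left out the sex and mitochondrial chromosomes and shallow samples. The deposited table gives, for each CpG in each sample, raw counts of methylated and of unmethylated calls. PCR copies are not told apart, so intervals from counts and limits at 0 (3 counts of the total) cover counting error only. Of 50 samples, 44 had counts and 6 were not analysed here. P-values measure the spread between these samples, each a muscle numbered separately in the labels.

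The authors' assignments to promoters, gene bodies and clusters were used as deposited. GENCODE M21 gave exons and introns on GRCm38, the assembly of mm10. Counts summed per cluster, promoter, gene body or CpG were fitted over the whole table in edgeR 4.0.16 (R 4.3.3), with a coefficient per sample and a methylated fraction for each of the 8 groups. The quasi-likelihood F test with a common dispersion (from every 10th CpG for single CpGs) was two-sided, with Benjamini-Hochberg adjustment over all features. Genotype was the mean of the 4 mD3AKO groups against that of the 4 WT groups. Intervals (95%) are normal approximations, from the SDs for level differences. Alternatives were the likelihood ratio test, a quasi-binomial model (pseudocount 0.5), limma 3.58.1 on the log2 ratio of counts (pseudocount 1 or 0.5), coverage of at least 20, gaps of 50 or 200 bp between clusters, sex added, subsets of samples and each sample left out. The edgeR quasi-likelihood, quasi-binomial and limma fits were run on simulated data with known genotype effects. These effects were placed only in clusters away from both ends of the scale, so not in clusters near 0. All of them were larger in size than the Gpx4 estimate, so these runs do not show how often a difference of that size would be called. The likelihood ratio test and the genotype by sex fits were not run on the simulated data.

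All members are named. Of the related lists, genes with a called cluster are named, and otherwise the 3 clusters per list with the lowest genotype p. The genes and lists were chosen with earlier results of these data known. Lists of endothelial, immune, fibroblast, satellite cell and adipocyte markers were looked up too, and 4 of their 16 genes had a promoter CpG (Kdr 1.20%, Csf1r 57.3%, Pdgfra 1.21% and Pax7 13.8%, means over samples).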

Additional observations from a re-analysis of the deposited data

Results flagged for a closer look

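In 110 sets of 5 to 7 samples (14 clusters in 8 groups, without 2 sets in which all samples were equal) the most extreme sample was compared with the others by Dixon's ratio. It stood apart in 22. The rate of about 1 in 20 that chance gives for this ratio does not apply here, since in sets where most samples are at or near 0 a few methylated calls in 1 sample make the ratio extreme, and in 6 of the 22 all other samples were at 0. The sample was the highest in 21 and the lowest in 1, and 18 samples were involved, 4 of them in 2 clusters each. All 22 lay in clusters with a mean under 2%.

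At the Nfe2l2 promoter the highest sample was at 0.354% in WT at rest, 2.09% in WT at 10 min, 2.30% in WT at 60 min, 5.44% in mD3AKO at rest, 0.149% in mD3AKO at 10 min and 1.69% in mD3AKO at 60 min, with the others of each group at 1.00% or less. At the Keap1 promoter it was at 1.83% in WT at rest. At the Sod1 promoter it was at 4.50% in WT at rest, 4.17% in WT at 30 min, 1.34% in mD3AKO at rest and 7.88% in mD3AKO at 10 min. In the Sod2 cluster of 19 CpGs the lowest WT sample at 10 min was at 0.102%, and the highest mD3AKO samples at 30 and 60 min were at 2.37% and 1.84%. At the Cat promoter the highest mD3AKO samples at 10 and 30 min were at 11.1% (45 calls) and 6.33% (158 calls). In the Txn2 gene body the highest samples were at 5.44% in WT at rest, 6.59% in WT at 30 min, 1.23% in mD3AKO at 10 min and 6.67% in mD3AKO at 30 min. At the Txn2 promoter they were at 0.0851% in WT at 10 min and 3.45% in WT at 30 min.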

How the results depend on the processing

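The counts of member clusters, promoters, gene bodies and CpGs called for genotype, time or the interaction were 0 under every alternative run, and 0 in each of the 44 fits that left out a sample (quasi-binomial model, counts 0 to 0). Over all 51038 clusters the genotype calls were 1414 with the likelihood ratio test and 1296 in the quasi-binomial model, against 556. In limma they were 895 and 792 at pseudocounts of 1 and 0.5. At a coverage minimum of 20 there were 428, but only 28165 clusters were left to test, so 428 and 556 are not on the same base. Samples 1 to 25 and 26 to 50 gave 25 and 33 calls and the samples at rest gave 0, each on fewer samples than the main fit. The cause of these differences was not tested. Time gave 10 calls and the interaction 7 with the likelihood ratio test, and the interaction 1 in limma, none of them a member. Promoters gave 188, 166 and 133 calls against 77 and gene bodies 328 and 288 against 173 (likelihood ratio test and quasi-binomial model, with limma the third for promoters), and CpGs 1459 in limma against 587. Clusters of the related lists called for genotype numbered 3 with the likelihood ratio test, 2 in the quasi-binomial model and 2 in limma, against 1, and Gpx7 was called in all of these fits. The adjusted p of the Gpx4 cluster was 0.128 to 1 over 9 alternatives and 0.106 to 0.362 with a sample left out, and its difference stayed between -9.30 and -7.38 points with a sample left out. Of 686 recomputed level differences of the 14 clusters, 685 moved by less than 1 SD between samples. The exception was the Sod3 promoter in females only, at 4.00 points. Most of the 686 left out 1 sample, which cannot move a mean of 21 or 23 samples by 1 SD. The count of 685 therefore does not show that the differences were stable. Without 1 sample, the Keap1 promoter changed sign in 21 of 44 cases, the Txn2 promoter in 4, and the Nfe2l2 promoter and the Sod3 gene body in 1 each. In females, males, samples 1 to 25, samples 26 to 50 or with equal weight per CpG, 10 of the 14 changed sign at least once, among them the Gpx1 promoter (4.40 points in samples 1 to 25 and -9.46 in 26 to 50) and the Nfe2l2 promoter (0.545 and -0.945). No paired analysis was possible because each sample number in the labels occurs once. Levels at or near 0 rest on few methylated calls, and single CpGs on as few as 9.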

Other observations

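RefSeq promoter windows (GRCm38, 250 bases before to 50 after a start) were found for 9 of the 10 genes, 12 windows in all. Of these, 91.7% held a CCGG, the site at which RRBS cuts, against 52.8% of all 32851 windows, and their median number of CpGs was 17 against 7. Measured CpGs nevertheless lay in only 3 of the 12 windows, those of Cat (3 CpGs), Txn2 (9) and Sod2 (1). The Prdx3 window held 15 CpGs and 3 CCGG sites, and none of its CpGs was among those measured in every sample. The antioxidant response element core TGACNNNGC, searched on both strands, was found in 2 of the 12 windows, those of Nfe2l2 and Sod1, and in 12.4% of all windows. No CpG of these windows was measured, so the levels reported for both genes are not those of a window with the motif.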
